A study of Mus musculus with 6 samples.

Results

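Laminins and integrins together link a cell to its basement membrane: laminins are proteins of the membrane itself, and integrins are receptors on the cell surface. All rows of the deposited mouse muscle table were taken whose symbol names a laminin chain (Lama, Lamb or Lamc with a number) or an integrin subunit (Itga or Itgb), without the Itgb1bp and Itgbl genes. The rule took 38 of 16759 genes. One of them, Itgb3bp, encodes a protein that binds an integrin and is no integrin itself, so it is given apart. The other 37 were 11 laminin chains and 26 integrin subunits, of which 18 were alpha and 8 were beta subunits. Lamb4 and Itgb2l had no row in the table used here.

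The libraries were made from total RNA of hind leg muscle, 1 from each of 6 mice, 3 in the control (Con) and 3 in the exercise (EX) group. All were male C57BL/6J mice that were 8 weeks old at the start. The EX mice ran on an electric treadmill at moderate intensity. They had 5 sessions of 60 min in each of 6 weeks and covered 22 km, and their muscle was taken 24 h after they last ran. The Con mice were not trained. All mice were perfused with saline, and which of the hind leg muscles gave the RNA is not given in the sources used here.

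A laminin is a trimer of 1 alpha, 1 beta and 1 gamma chain. Around a muscle fibre the alpha chain is mostly that of Lama2, whereas vessel walls also carry the chains of Lama4 and Lama5. Cells bind laminins through alpha and beta integrin pairs, the alpha7 and beta1 pair on adult muscle fibres, the alpha6 chain on endothelium and Schwann cells, and through dystroglycan. Other integrins bind fibronectin, vitronectin or collagen, and leukocytes carry integrins of their own that bind adhesion molecules on the vessel wall.

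The files held between 13845362 and 16240431 estimated counts per library, in which 3 counts are worth 0.185 to 0.217 counts-per-million (CPM). As the tissue label says, muscle fibre genes were abundant, and 10 fibre markers summed to between 161344 and 169655 transcripts-per-million (TPM). The EX libraries held slow fibre transcripts that were nearly lacking in Con: Myh7, the slow myosin heavy chain, was at 1.0 ± 0.163 CPM in Con and at 102 ± 7.38 CPM in EX (mean ± SD, n = 3 mice a group). Of the 10 fibre markers, 4 were higher in EX. They were Myh7 (log2 fold change 6.65, adjusted p = 2.3e-26), the slow troponin Tnnt1 (4.26, adjusted p = 4.17e-19), Pvalb (0.35, adjusted p = 7.53e-08) and Acta1 (0.22, adjusted p = 3.39e-06). Another 3 were lower. The 3 were Myh2, a myosin of fast oxidative fibres (-0.75, adjusted p = 1.39e-15), Mb, the myoglobin gene (-0.14, adjusted p = 0.00322), and Myh1, another fast myosin (-0.09, adjusted p = 0.047). The part of fibre type in the values that follow was not tested. Markers of other cell types also moved, and their values are given beside the integrins and laminins that those cells carry. In bulk tissue, fewer cells of a type and less RNA per cell cannot be told apart.

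Promoter sequences are shown for 3 genes whose change held under each alternative tried that tested them and that have an entry in the RefSeq promoter table (GRCm38.p6), in which 23 of the 37 genes were found. Each is the stretch of 250 bases that ends just before the annotated start, 5′ to 3′ on the strand of the gene. Capitals mark 3 kinds of motif on either strand, namely GC boxes (GGGCGG), E boxes (CANNTG) and TATA boxes (TATAAA). Lama5 lies on the minus strand of chr2:180225860-180226109, Lamb1 on the plus strand of chr12:31265043-31265292 and Itga4 on the plus strand of chr2:79255176-79255425.
Lama5: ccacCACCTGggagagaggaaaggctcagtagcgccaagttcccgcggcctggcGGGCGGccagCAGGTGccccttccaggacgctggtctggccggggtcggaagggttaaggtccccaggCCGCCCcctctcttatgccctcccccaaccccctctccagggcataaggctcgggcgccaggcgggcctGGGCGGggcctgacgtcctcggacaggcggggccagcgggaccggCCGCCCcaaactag
Lamb1: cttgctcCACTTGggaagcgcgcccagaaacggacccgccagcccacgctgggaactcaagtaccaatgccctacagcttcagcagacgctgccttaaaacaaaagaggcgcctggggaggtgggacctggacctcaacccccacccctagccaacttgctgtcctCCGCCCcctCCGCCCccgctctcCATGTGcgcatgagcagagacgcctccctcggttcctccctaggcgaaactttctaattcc
Itga4: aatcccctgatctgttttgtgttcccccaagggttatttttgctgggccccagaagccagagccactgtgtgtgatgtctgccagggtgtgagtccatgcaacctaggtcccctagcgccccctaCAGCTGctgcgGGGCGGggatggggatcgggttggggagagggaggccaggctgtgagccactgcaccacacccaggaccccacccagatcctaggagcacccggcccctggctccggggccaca
The Lama5 stretch holds 4 GC boxes and 2 E boxes, that of Lamb1 holds 2 and 2, and that of Itga4 holds 1 and 1. None of the 3 holds TATAAA. Of 32536 mouse promoters of the same length, 33.0% hold a GC box, 66.2% an E box and 12.3% a TATA box, so that these matches are a description of common motifs and not of binding sites.

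The comparison of EX with Con asked which laminin chains and integrin subunits differed in muscle after 6 weeks of treadmill training. Of the laminins, 4 fell and none rose: Lama5, Lamb1, Lama2 and Lamc1. Of the integrin subunits, Itga6 fell, and Itga4 and Itgav rose. The falls were small: Lamc1 fell by 8.21% and Lama5, the largest fall, fell by 20.4%. The largest rise was that of Itga4, by 41.4%. The muscle fibre pair, Itga7 and Itgb1, did not pass the test.

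A mean of at least 1 FPKM (fragments per kilobase of transcript, scaled to library size) over the 6 libraries was reached by 19 of the 37 genes, 6 laminin chains and 13 integrin subunits. With edgeR's quasi-likelihood test and an adjusted p under 0.05 over all 10883 genes tested, 2 of the 19 were higher and 5 lower in EX, beside a background of 9.11% of all tested genes called higher and 8.80% called lower (17.9% in all). The median log2 fold change (EX against Con) was -0.08 over the 19 and -0.00093 over all tested genes. In 13 of the 19 genes the 3 EX libraries did not overlap the 3 Con libraries, against 33.7% of all tested genes. None of the 18 genes under the filter passed the test in a fit of all 16759 genes, in which 12.0% of genes were called, 6.04% higher and 5.93% lower.

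**Figure D1:**
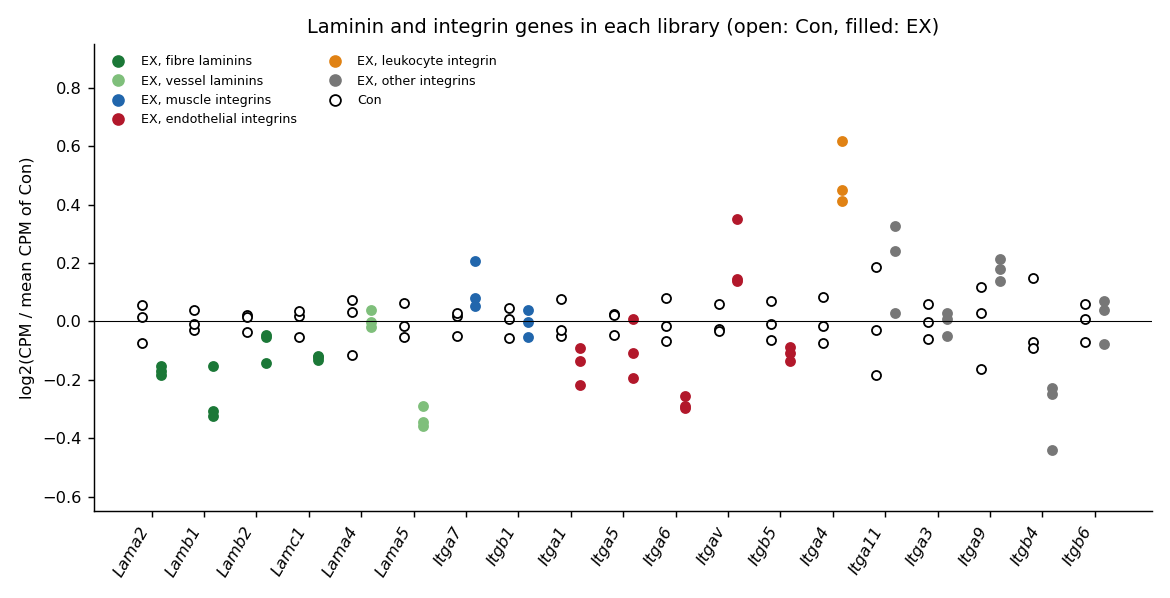
CPM of the 19 tested genes in each library, as log2 of the ratio to the mean of the Con libraries (vertical axis), by gene and class (horizontal axis). Open points are the 3 Con mice and filled points the 3 EX mice. The EX points of Lama5, Lamb1 and Itga6 lie below all their Con points, and those of Itga4 lie above them, while those of Itgb1, Lama4 and Itgb6 overlap Con.

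Among the chains of the muscle fibre basement membrane, Lama2, Lamb1 and Lamc1 fell, and Lamb2, the beta chain known for its place at the neuromuscular junction, did not pass the test. The median log2 fold change of these 4 chains was -0.15. Lama2, whose loss in humans causes a congenital muscular dystrophy, was at 45.9, 50.2 and 48.9 CPM in the Con libraries and at 42.5, 42.9 and 43.5 CPM in the EX libraries. All 3 EX libraries lay below all 3 Con libraries, and the log2 fold change was -0.17 (95% interval -0.28 to -0.06, adjusted p = 0.0212). This small change did not pass the test in 9 of 16 alternatives, among them DESeq2 (adjusted p = 0.11), a fit with the trend in transcript length removed (-0.09, adjusted p = 0.28), and those that left out Con 2 (-0.15, adjusted p = 0.11), Con 3 (-0.16, adjusted p = 0.056), EX 1 (-0.16, adjusted p = 0.062), EX 2 (-0.17, adjusted p = 0.059) or EX 3 (-0.18, adjusted p = 0.053).

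Lamb1, a beta chain found in most basement membranes, was at 31.8, 30.3 and 30.7 CPM in Con and at 25.0, 27.8 and 24.7 CPM in EX. The groups did not overlap, and the highest EX library was still below the lowest Con library. Its log2 fold change was -0.26 (-0.39 to -0.13, adjusted p = 0.00479), and it passed the test in all 17 alternatives, between -0.35 and -0.22.

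Lamc1, the gamma chain shared by most laminins, was at 137, 139 and 130.4 CPM in Con and at 124, 125 and 124 CPM in EX. The EX libraries lay close together and under every Con library. The log2 fold change was -0.12 (-0.21 to -0.04, adjusted p = 0.0354). It did not pass in 7 of 17 alternatives: DESeq2 (adjusted p = 0.083), the replicate block (adjusted p = 0.053), the length trend removed (-0.06, adjusted p = 0.37), and without Con 2 (-0.11, adjusted p = 0.14), EX 1 (-0.12, adjusted p = 0.090), EX 2 (-0.13, adjusted p = 0.080) or EX 3 (-0.12, adjusted p = 0.11). Lamb2 was at 179, 187 and 186 CPM in Con and at 167, 178 and 178 CPM in EX. The groups did not overlap here either, by a narrow gap, and the log2 fold change of -0.08 did not pass the test (-0.16 to 0.00, adjusted p = 0.179). It was -0.050 without EX 1 (adjusted p = 0.49) and passed with limma on TPM alone (-0.17, adjusted p = 0.028).

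Of the vessel wall alpha chains, Lama5 fell and Lama4 did not pass the test. Lama5, an alpha chain of mature vessels that also occurs at the neuromuscular junction, was at 110.5, 102 and 105 CPM in Con and at 82.4, 86.5 and 83.3 CPM in EX. The EX libraries lay well under the Con libraries. The log2 fold change was -0.33 (-0.42 to -0.24, adjusted p = 3.83e-06), the largest fall of a tested laminin, and it passed the test in all 17 alternatives, between -0.42 and -0.23. Lama4, the alpha chain found in the endothelial basement membrane of most vessels, was at 29.6, 33.7 and 32.7 CPM in Con and at 31.9, 31.6 and 32.9 CPM in EX. Its groups overlapped, the interval of its log2 fold change was -0.12 to 0.13 (adjusted p = 0.976), and its sign turned in 7 of 17 alternatives.

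**Figure D2:**
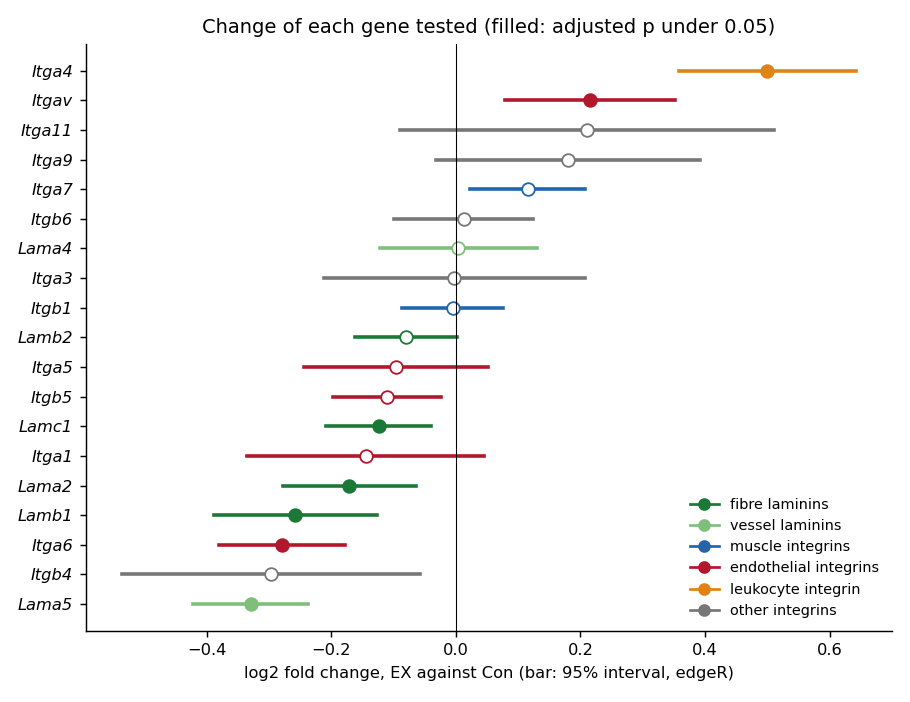
Log2 fold change, EX against Con (horizontal axis), of the 19 tested genes (vertical axis, ordered by their change), with 95% intervals from edgeR as bars. Filled points have an adjusted p under 0.05. Itga4 stands highest at 0.50 and Lama5 lowest at -0.33, and the interval of Itgb1 spans -0.09 to 0.08.

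The remaining 5 laminin chains, known from epithelia, the embryo and other basement membranes, were all under the filter. Lama3 was at 62 to 70 counts in Con and 59 to 91 counts in EX, and Lamc3 at 64 to 80 and 51 to 72 counts. Both overlapped between groups, with log2 fold changes of 0.10 for Lama3 (adjusted p = 0.759) and -0.26 for Lamc3 (adjusted p = 0.315). Lamb3 held 3 to 8 counts over the 6 libraries. Lama1, an embryonic alpha chain, held at most 1 count, which at this depth is under the limit of 3 counts that a count of 0 allows.

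Relative amounts of chains were compared as shares of summed TPM, a unit that is scaled to transcript length. Lama5 made up 48.0%, 43.6% and 44.8% of all laminin alpha chain transcripts in Con and 40.3%, 41.7% and 40.4% in EX. Every EX share was under every Con share, and the means were 45.4% ± 2.26 and 40.8% ± 0.817 (SD, n = 3; exact two-sided permutation test, p = 0.1, the smallest that 3 against 3 allows). Lama4 went the other way in these shares, from 26.7% ± 1.59 to 30.3% ± 0.708 (exact permutation p = 0.1). Lama2 held 24.6% ± 0.911 in Con and 24.6% ± 0.241 in EX, a difference of 0.053 percentage points whose sign turned without Con 1 (-0.44) and without EX 3 (-0.084) (exact permutation p = 0.9). The groups overlapped in this share. Among beta chains the share of Lamb1 was 14.2% ± 0.612 in Con and 12.7% ± 0.693 in EX (exact permutation p = 0.1), and Lamb2 made up nearly all the rest. Lamc1 made up 95.7% ± 0.404 and 95.9% ± 0.216 of the gamma chains (exact permutation p = 0.5). The TPM of all laminin chains summed to 118 to 121 in Con and to 102 to 104 in EX, beside a median log2 change of -0.09 over all tested genes on the TPM scale.

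**Figure D3:**
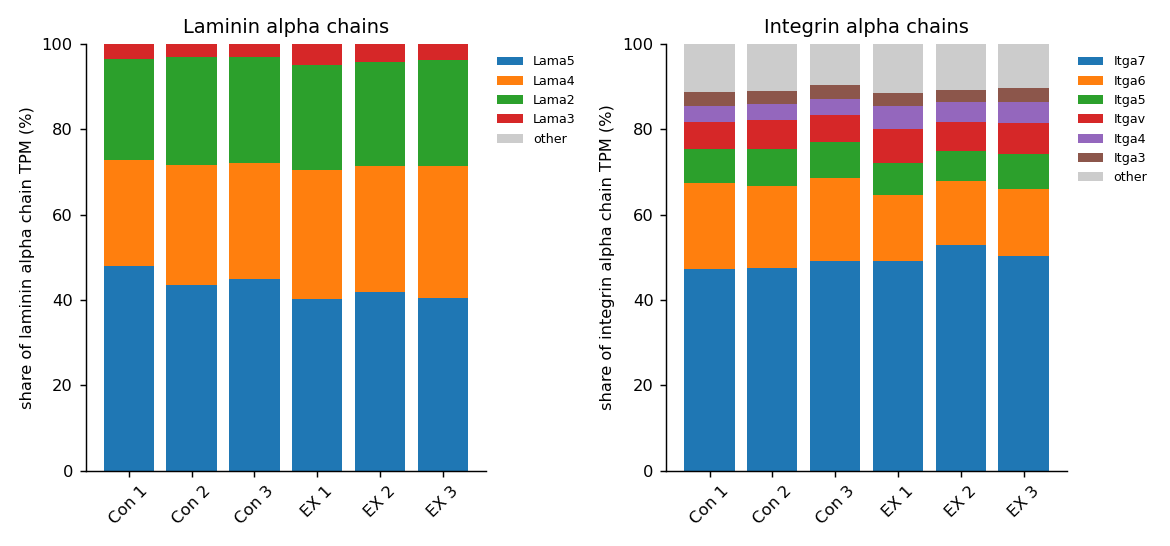
Share of each chain in the summed TPM of laminin alpha chains (left) and of integrin alpha chains (right), in percent (vertical axis), for each of the 6 libraries (horizontal axis). Lama5 takes 43.6% to 48.0% of the laminin alpha chains in Con and 40.3% to 41.7% in EX, and Itga6 takes 19.1% to 20.1% of the integrin alpha chains in Con and 15.0% to 15.7% in EX.

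The muscle fibre integrin pair stood out by its level and not by its change. Itga7 was the integrin alpha chain with the highest TPM, 44.3 ± 1.43 in Con and 45.7 ± 1.84 in EX, and Itgb1, the beta subunit that pairs with most alpha chains, the beta chain with the highest, 89.8 ± 3.74 and 84.0 ± 3.99. Itgb5, at 86.4 ± 3.55 TPM in Con, was within the spread of Itgb1 in that group. Itga7 was at 124, 119 and 125 CPM in Con and at 129.7, 142 and 127 CPM in EX. The EX libraries lay above the Con libraries, with EX 2 apart from the other two, and the log2 fold change of 0.12 did not pass the test (0.02 to 0.21, adjusted p = 0.0771). Without EX 2 it was 0.067 (adjusted p = 0.40), and with limma on TPM it was 0.045 (adjusted p = 0.53). Itgb1 was at 226, 237 and 243 CPM in Con and at 242, 227 and 235 CPM in EX. Its groups overlapped fully, with a difference no larger than 0.09 on the log2 scale in either direction by its interval (-0.09 to 0.08, adjusted p = 0.95). Itga7 made up 48.0% ± 1.04 of the integrin alpha chain TPM in Con and 50.7% ± 1.99 in EX (exact permutation p = 0.2).

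Of the 7 integrin subunits of endothelium and the vessel wall, 5 were tested, of which Itgav rose and Itga6 fell. Their median log2 fold change was -0.11. Itga6, a laminin receptor chain of endothelium, Schwann cells and epithelia, was at 72.1, 65.1 and 67.5 CPM in Con and at 57.1, 55.6 and 55.8 CPM in EX. The 3 EX libraries lay within 2 CPM of each other and below every Con library. The log2 fold change was -0.28 (-0.38 to -0.18, adjusted p = 0.000135), it passed the test in all 17 alternatives, and the share of Itga6 in integrin alpha chain TPM went from 19.5% ± 0.530 to 15.5% ± 0.391 (exact permutation p = 0.1).

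Itgav, the alpha chain of receptors for vitronectin, fibronectin and latent TGF-beta, was at 27.2, 28.8 and 27.0 CPM in Con and at 35.3, 30.6 and 30.5 CPM in EX. All EX libraries lay above Con, EX 1 by the widest gap. The log2 fold change was 0.22 (0.08 to 0.35, adjusted p = 0.0225), and without EX 1 it was 0.14 (adjusted p = 0.17), without Con 3 it was 0.20 (adjusted p = 0.073). It also did not pass with DESeq2 (adjusted p = 0.097) or with limma on FPKM or TPM (0.12 to 0.16, adjusted p = 0.24 to 0.34). Itgb5, a beta partner of Itgav, was at 150.5, 159 and 145 CPM in Con and at 140.5, 143 and 138 CPM in EX. The groups did not overlap, the log2 fold change of -0.11 missed the threshold (-0.20 to -0.02, adjusted p = 0.0681), and it passed in 7 of 17 alternatives. Without Con 1 it was -0.12 (adjusted p = 0.043), and without Con 3 it was -0.14 (adjusted p = 0.026).

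The other vascular subunits did not pass the test. Itga1, a collagen receptor chain, had 11.5 to 12.5 CPM in Con and 10.2 to 11.1 CPM in EX (log2 fold change -0.14, adjusted p = 0.309), and Itga5, the fibronectin receptor chain, had 20.6 to 21.6 and 18.6 to 21.4 CPM (-0.10, adjusted p = 0.395). The change of Itga5 was -0.049 without EX 2 (adjusted p = 0.74) and -0.15 without EX 3 (adjusted p = 0.25), and that of Itga1 was -0.050 with the length trend removed (adjusted p = 0.78). Itgb3, the other main beta partner of Itgav and the platelet beta chain, was under the filter with 12, 19 and 17 counts in Con and 22, 24 and 22 counts in EX. The groups did not overlap, and its log2 fold change of 0.45 had a wide interval at these counts (-0.09 to 0.99, adjusted p = 0.331). Itga2 held 6 to 18 counts over the 6 libraries.

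Of 15 markers of blood vessel endothelium, 7 were lower and 1 was higher in EX, with a median log2 fold change of -0.14. Of all tested genes, 8.80% were called lower and 9.11% higher, shares that also stand beside the counts of the other marker lists. The summed TPM of the endothelial markers was 789.7 to 802 in Con and 691 to 703 in EX. Flt1, a receptor for vascular endothelial growth factor, was at 164 ± 2.07 CPM in Con and 136 ± 1.06 CPM in EX (log2 fold change -0.27, adjusted p = 9.06e-06), and Cdh5, the endothelial cadherin, was at 203 ± 10.3 and 169 ± 7.97 CPM (-0.26, adjusted p = 7.38e-05). The marker that rose was Cldn5, a tight junction protein (0.25, adjusted p = 0.0157), and its call was lost in 6 of 17 alternatives: DESeq2 (adjusted p = 0.095), the 3 limma fits (0.16 to 0.20, adjusted p = 0.067 to 0.10), the length trend removed (0.21, adjusted p = 0.052) and without Con 2 (0.19, adjusted p = 0.13). Of 9 markers of smooth muscle and pericytes, 5 were lower, led by Pdgfrb (-0.40) and Rgs5 (-0.36), and Acta2 was higher (0.15), with a summed TPM of 417 to 437 in Con and 339 to 361 in EX without Des, which muscle fibres hold in plenty and which was left out of this sum after its values were seen (0.03, adjusted p = 0.629; with it, 1760.4 to 1865 in Con and 1642 to 1709.9 in EX). The call of Acta2 was lost in 12 of 17 alternatives, among them those without Con 2 (0.10, adjusted p = 0.23), Con 3 (0.15, adjusted p = 0.072), EX 1 (0.13, adjusted p = 0.12), EX 2 (0.15, adjusted p = 0.075) or EX 3 (0.16, adjusted p = 0.069). Of 9 Schwann cell markers, 5 were tested and 4 of them were lower, led by Prx, a gene of the myelin sheath (-0.74), with a summed TPM of 94.3 to 105 in Con and 68.5 to 70.9 in EX. No defining marker of these lists was at 0 in all libraries. Lama5, Lama4, Itga6 and Itgb4 are carried by these cells too, and the part of cell content in their values was not tested.

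The leukocyte and platelet group held 9 integrin subunits, and Itga4 alone reached the filter. Itga4, the alpha chain that pairs with Itgb1 or Itgb7 and binds VCAM-1 and fibronectin, held 324, 328 and 346 counts in Con and 534, 459 and 472 counts in EX. In CPM these were 23.2, 20.9 and 21.7 in Con and 33.7, 29.2 and 30 in EX, so that every EX library lay above every Con library. The log2 fold change was 0.50 (0.36 to 0.64, adjusted p = 4.95e-06), the largest of all tested laminin and integrin genes. It passed the test in all 16 alternatives that kept the gene, between 0.32 and 0.58, and its share of integrin alpha chain TPM went from 3.69% ± 0.120 to 5.01% ± 0.390 (exact permutation p = 0.1).

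The other 8 subunits of this group were low in all libraries and overlapped between Con and EX. Itgb2, the beta chain common to the leukocyte-restricted integrins, held 24, 33 and 22 counts in Con and 30, 25 and 20 counts in EX (log2 fold change -0.13, interval -0.61 to 0.35, adjusted p = 0.80). Its alpha partner Itgam, of macrophages and neutrophils, held 23, 17 and 18 counts in Con and 27, 33 and 14 counts in EX (0.30, -0.26 to 0.85, adjusted p = 0.58). Itgal, of lymphocytes, held 5 to 15 counts over the 6 libraries, Itgax, of dendritic cells and macrophages, held 6 to 11, and Itgb7, the other beta partner of Itga4, held 8 to 16. Itga2b, the platelet alpha chain, held 11 to 21 counts, Itgae held 2 to 4 and Itgad at most 1. At these counts the intervals do not leave out a change as large as that of Itga4 for Itgam, Itgax, Itgb7 or Itga2b, and a difference of that size was not detectable in them.

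Of 15 leukocyte markers, 10 were tested, of which 7 rose and none fell, with a median log2 fold change of 0.86. The 7 were Csf1r, C1qa, C1qb, C1qc, Lyz2, Mrc1 and Fcgr3, genes known from macrophages and other myeloid cells. Markers of other leukocytes were at a few counts and did not pass: Cd3e, of T cells, held 1, 1 and 0 counts in Con and 0 in each EX library, Cd79a, of B cells, held 6, 2 and 4 counts in the Con libraries and 1, 2 and 0 in the EX libraries (adjusted p = 0.181), and S100a8, of neutrophils, held 1 to 2 counts in every library. Cd14, of monocytes and macrophages, was at 14 to 18 counts in Con and 18 to 19 in EX (0.08, adjusted p = 0.898). The summed TPM of the 15 was 72.8 to 76.7 in Con and 123 to 129 in EX. The genes with the largest rises were C1qc (1.26, adjusted p = 5.34e-07) and C1qb (1.03, adjusted p = 1.63e-06), subunits of complement C1q that macrophages make. Ptprc, the antigen common to leukocytes, was at 1.42, 1.52 and 1.5 CPM in Con and at 2.58, 1.52 and 2.21 CPM in EX (0.50, adjusted p = 0.168). Pf4 was the one platelet marker of 7 over the filter and rose (1.29, adjusted p = 0.000513). The other 6 held at most 6 counts in any library and did not pass in the fit of all genes. Myogenic cells carry Itga4 as well, and of 10 satellite cell and myoblast markers 6 were tested, of which Myog (0.99) and Myod1 (0.44), transcription factors of muscle differentiation, rose and none fell. In the fit of all genes 3 markers under the filter rose as well. Mymk, a membrane protein of myoblast fusion, held 1, 0 and 1 counts in Con and 24, 18 and 23 counts in EX (adjusted p = 2.39e-08). The developmental myosins Myh3 (2.95, adjusted p = 1.5e-17) and Myh8 (2.10, adjusted p = 9.49e-14) rose too, whereas Pax7, the marker of quiescent satellite cells, did not pass (-0.08, adjusted p = 0.717). Which cells held the Itga4 transcripts was not tested.

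**Figure D4:**
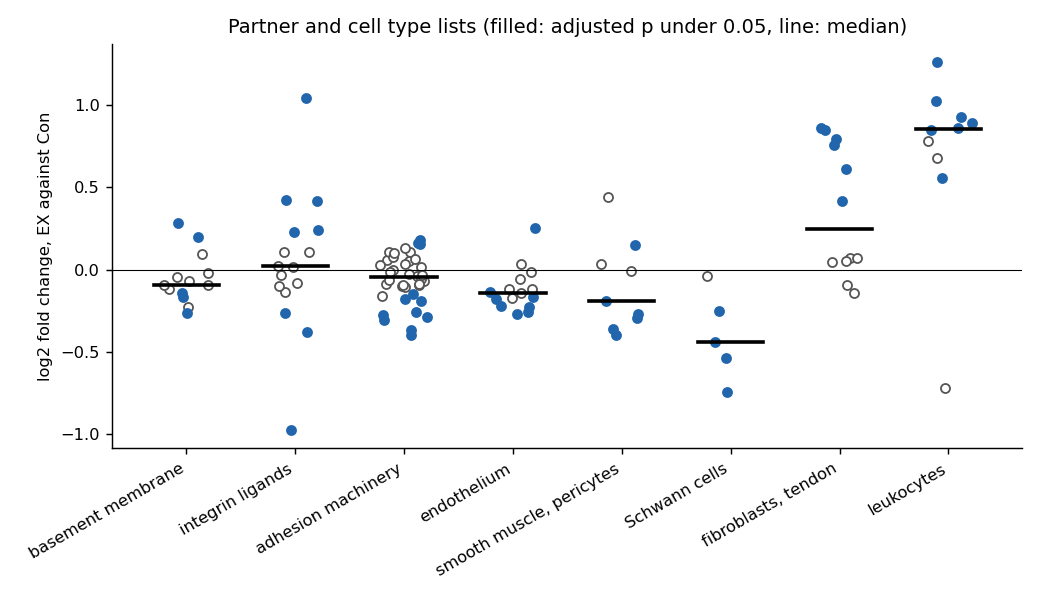
Log2 fold change, EX against Con (vertical axis), of each tested gene of 8 lists of partner genes and cell type markers (horizontal axis), with the median of each list as a bar. Filled points have an adjusted p under 0.05. Leukocyte markers have a median of 0.86, endothelial markers of -0.14 and the adhesion machinery of -0.05.

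The 8 integrin subunits of mesenchymal, epithelial and other cells included 5 tested genes, none of which passed. Itgb4, the beta chain that pairs with Itga6 in epithelia, Schwann cells and some vessels, was at 9.47, 8.14 and 8.03 CPM in Con and at 6.31, 7.20 and 7.30 CPM in EX. All EX libraries lay under Con, and the log2 fold change of -0.30 missed the threshold (-0.54 to -0.06, adjusted p = 0.079). Itga9, which binds tenascin and osteopontin, was at 8.15 to 9.92 CPM in Con and 10.1 to 10.6 CPM in EX (0.18, adjusted p = 0.25), again without overlap. Without Con 3 its log2 fold change was 0.099 (adjusted p = 0.62). Itga11, a collagen receptor chain of fibroblasts, overlapped at 3.94 to 5.09 and 4.57 to 5.61 CPM (0.21, adjusted p = 0.352), with 0.12 (adjusted p = 0.68) without Con 2 and 0.076 to 0.14 in the limma fits.

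Itga3, a laminin receptor chain of epithelia, was level between groups at 8.78 to 9.54 and 8.85 to 9.33 CPM, with an interval of -0.21 to 0.21 (adjusted p = 0.99). Itgb6, known as an epithelial beta chain, was at 43.5 to 47.5 CPM in Con and 43.2 to 47.9 CPM in EX, with an interval of -0.10 to 0.12 (adjusted p = 0.907). It was well above Itga3 in TPM, at 14.9 ± 0.564 in Con against 2.99 ± 0.115. The other 3 were under the filter. Itga8, a chain of smooth muscle and fibroblasts, held 41, 51 and 52 counts in Con and 45, 46 and 33 counts in EX, which in CPM were apart by a hair (-0.27, adjusted p = 0.405). Itga10, a collagen receptor chain of cartilage, held 26 to 43 counts over the 6 libraries. Itgb8 held 2 to 5 counts in Con and 0 to 2 in EX, close to the limit of 3 counts, and no fold is given. Of 12 tested fibroblast and tendon markers, 6 were higher, led by Col1a1 (0.86) and Tnmd (0.85), and none was lower. The other 6 did not pass. They were Pdgfra (-0.14, adjusted p = 0.173), Dcn (-0.10, adjusted p = 0.118), Lum (0.05, adjusted p = 0.61), Scx (0.05, adjusted p = 0.889), Kera (0.07, adjusted p = 0.738) and Comp (0.07, adjusted p = 0.737). Fibroblasts carry Itga11 and Itgav too, and the part of cell content in their values was not tested. Itgb3bp, the gene outside both families, was at 2.29 to 2.32 CPM in Con and 2.40 to 3.68 CPM in EX (0.37, adjusted p = 0.194), with 0.19 (adjusted p = 0.62) without EX 3.

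The other parts of the adhesion system were described by 3 lists of 79 genes in the table, of which 67 were tested, 10 rose and 15 fell (median log2 fold change -0.04). Of all tested genes, 9.11% were called higher and 8.80% lower, the shares to set beside the counts of each list. When 1 library was left out, 5 to 10 of the 67 rose and 12 to 14 fell. Of 13 tested components of the basement membrane and of the dystroglycan link, 2 rose and 3 fell. Sparc, a collagen-binding protein, was at 309.6, 299.8 and 291 CPM in Con and at 357, 372 and 367 CPM in EX (0.28, adjusted p = 1.72e-06). Agrn, the proteoglycan that clusters acetylcholine receptors and binds laminin, was at 44.7, 42.6 and 46.4 CPM in Con and at 36.3, 36.9 and 37.9 CPM in EX (-0.27, adjusted p = 0.000732). Both pairs of groups were fully apart. Col4a2, a chain of basement membrane collagen, fell from 216 ± 2.97 to 193 ± 5.49 CPM (-0.16, adjusted p = 0.00268). Npnt, a ligand of the alpha8 and beta1 pair, rose (0.20, adjusted p = 0.0276), and this call was lost in 9 of 17 alternatives, among them those without Con 2 (0.15, adjusted p = 0.18), EX 1 (0.20, adjusted p = 0.061), EX 2 (0.20, adjusted p = 0.072) or EX 3 (0.20, adjusted p = 0.081). Under the filter, Fras1, a basement membrane protein known from epithelia, held 8, 9 and 9 counts in Con and 21, 21 and 30 counts in EX and passed in the fit of all genes (1.40, adjusted p = 0.00111). Dag1, the other laminin receptor of the fibre, was at 399 to 433 CPM in Con and 434 to 453 CPM in EX (0.09, adjusted p = 0.0775).

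Of 16 tested integrin ligands, 5 rose and 3 fell. Tnc, a matrix protein bound by alpha9 and alphav integrins, was at 5.24, 4.45 and 4.70 CPM in Con and at 10.7, 9.87 and 9.02 CPM in EX (1.04, adjusted p = 3.47e-07), the largest rise of a gene over the filter on the 3 lists. Ccn2, a matrix-associated growth regulator, rose from 14.4 ± 1.61 to 19.5 ± 1.09 CPM (0.42, adjusted p = 0.000549). Fga, a fibrinogen chain known from liver, fell from 5.95 ± 0.409 to 3.02 ± 0.0508 CPM (-0.98, adjusted p = 1.44e-05). Icam2, a ligand of leukocyte integrins on endothelium, fell (-0.38, adjusted p = 0.0175), and the call was lost with DESeq2 (adjusted p = 0.087) and without Con 1 (-0.33, adjusted p = 0.059), Con 2 (-0.34, adjusted p = 0.080), EX 1 (-0.36, adjusted p = 0.061) or EX 2 (-0.37, adjusted p = 0.055). Vcam1, the vessel wall ligand of Itga4, was at 6.30 to 8.11 CPM in Con and 6.62 to 7.26 CPM in EX and overlapped fully (-0.08, adjusted p = 0.706).

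Inside the cell, 38 genes of the adhesion machinery were tested, of which 3 rose and 9 fell. The share that rose was close to the 9.11% of all tested genes called higher. Tns2, a tensin that binds beta integrin tails, was at 128, 111 and 108 CPM in Con and at 82.5, 92.4 and 88.1 CPM in EX (-0.40, adjusted p = 4.01e-06). Flnc, the muscle filamin that crosslinks actin at the membrane and the Z-disc, was at 758, 771 and 770.1 CPM in Con and at 586, 602 and 597 CPM in EX (-0.37, adjusted p = 3.71e-09). In both genes the EX libraries lay far below the Con libraries. Among the others, Actn1, Lims2, Sorbs2, Actn4 and Parvb fell by 0.15 to 0.29 on the log2 scale. Itgb1bp2, known as melusin, a muscle protein that binds the tail of beta1, rose from 142 ± 2.71 to 161 ± 4.2 CPM (0.18, adjusted p = 0.00177), a call lost with limma on TPM (0.085, adjusted p = 0.11). Pdlim7 rose as well (0.16, adjusted p = 0.00722), and its call was lost without EX 2 (0.13, adjusted p = 0.063) and in the 3 limma fits (0.051 to 0.086, adjusted p = 0.19 to 0.40). The third gene that rose was Vasp (0.16, adjusted p = 0.037).

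**Figure D5:**
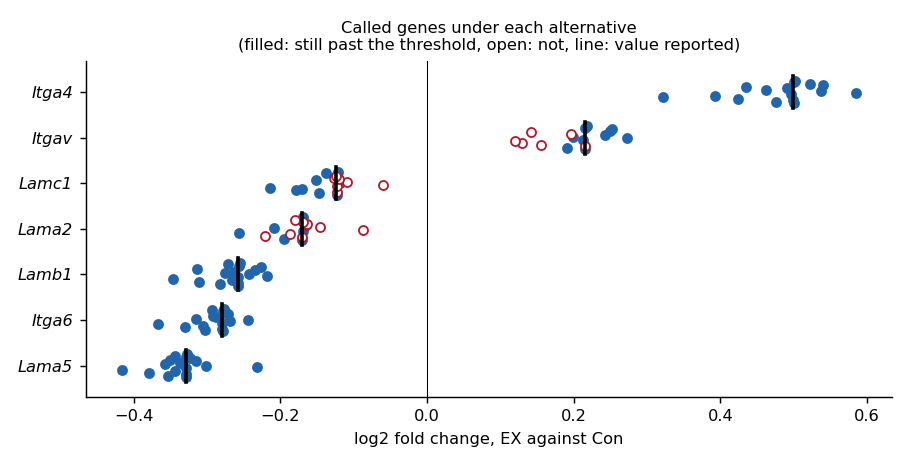
Log2 fold change, EX against Con (horizontal axis), of the 7 called laminin and integrin genes (vertical axis) under each alternative setting. Filled points pass the threshold, open points do not, and the vertical mark is the value reported. Lama5, Itga6, Lamb1 and Itga4 pass under every setting drawn, whereas Lama2, Lamc1 and Itgav lose the call under 9, 7 and 6 of them.

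Long transcripts were on average lower in EX. The 1499 tested genes with a transcript of at least 6 kb had a median log2 fold change of -0.07, and Lama5, Lama2, Lamc1, Itga4 and Itgav have transcripts of at least this length. With the trend in length removed, an alternative chosen after the data were seen, Lama5, Lamb1 and Itga6 were still lower, Itga4 and Itgav were still higher, and Lama2 and Lamc1 no longer passed.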

How the data were processed

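Total RNA of hind leg muscle from 3 Con and 3 EX mice was sequenced (paired-end, DNBSEQ). Per the labels, low-quality reads were removed, and the submitters' processing notes name cutadapt, MultiQC, featureCounts and the genome build GRCm38.p6, whereas the study's methods name HISAT and a later build, so that no gene coordinates are given other than RefSeq promoters on GRCm38.p6. The authors deposited 1 table that holds, for each library, estimated counts per gene (4.18% to 4.44% of the values are not whole), FPKM and TPM. The FPKM values are scaled by the authors to transcript length and library size, and the deposited TPM values are scaled to the same total in each library. Group means by the authors (6 columns) were not used. Whether counting used strand is not given in the sources used here, so reads of overlapping antisense genes cannot be told apart.

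Estimated counts were rounded and tested with edgeR 4.0.16 in R 4.3.3 (TMM scaling, glmQLFit and glmQLFTest, group as the single term) over 10883 genes that reached 1 FPKM on average, with Benjamini-Hochberg adjustment over all of them and a threshold of 0.05. Members under the filter were taken from a fit of all 16759 genes. CPM values were computed from the TMM-scaled totals. Shares of TPM were compared with exact two-sided permutation tests, whose smallest p is 0.1. Limits from a count of 0 cover counting error only. The edgeR p-values rest on the differences between these 6 mice and on a variance moderated over all tested genes. On simulated counts with 200 changed genes among 10883 (3 runs of EX against Con), edgeR recovered 95.7% of the changed genes. Of its calls, 2.70% were false. Whether the same rates hold for changes as small as those reported for the laminin and integrin genes was not tested.

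Alternatives were other scalings (median-ratio size factors, totals without the 20 most abundant genes), filters (none, mean of at least 5 FPKM, filterByExpr), DESeq2 1.42.0, limma 3.58.1 on log2(FPKM + 0.1), log2(FPKM + 1) and log2(TPM + 0.1), a replicate block, leaving out each library, and removal of the trend in transcript length. No pair of replicates was a repeat of 1 library (chi-square per gene 1.78 to 4.18). The text names every laminin and integrin gene of the table, and of each other list the 2 largest rises and 2 largest falls among called genes, although a few of these genes are not reported here. Dag1, Vcam1, Fras1 and further called genes of the adhesion machinery were named after their values were seen. So were the other leukocyte, satellite cell, fibre, fibroblast and smooth muscle markers. The members and all lists were chosen with earlier results of these data known.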

Additional observations from a re-analysis of the deposited data

How the results depend on the processing

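Over all alternatives, the calls of Lama5, Lamb1, Itga6 and Itga4 held wherever the gene was tested. Of the laminin and integrin genes, 2 were higher in EX in the reported fit, against 1 with DESeq2 and 1 with each of the 3 limma fits, and 0 with a mean of at least 5 FPKM, which removed Itga4 and Itgav by its construction. Leaving out 1 library gave 1 to 2. The 5 lower genes became 3 with DESeq2 and 3 with the transcript length trend removed, and 3 to 6 when 1 library was left out. The other adhesion genes higher in EX (10) became 6 with totals without the 20 most abundant genes, 6 with DESeq2, 5 with limma on log2(FPKM + 0.1), 5 on log2(FPKM + 1), 4 on log2(TPM + 0.1) and 6 with a mean of at least 5 FPKM, and 5 to 10 when 1 library was left out, while those lower (15) stayed between 12 and 22. Where no construction is named, the cause was not tested.

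The difference in the share of Lama2 ranged from -0.44 to 0.45 percentage points when 1 library was left out (-0.44 without Con 1, -0.084 without EX 3), and that of Itga7 from 1.63 to 3.57. Signs of log2 changes near 0 turned for 4 genes. With the length trend removed the log2 fold change of Itga3 turned to 0.019, and it ranged from -0.036 to 0.022 when 1 library was left out. For the log2 fold change of Itgb1 the range was -0.036 to 0.018 when 1 library was left out. With other scalings or filters the log2 fold change of Itgb6 turned to -0.011 with totals without the 20 most abundant genes, -0.032 with limma on log2(FPKM + 0.1), -0.029 on log2(FPKM + 1), -0.067 on log2(TPM + 0.1) and -0.0015 with a mean of at least 5 FPKM, and ranged from -0.024 to 0.055 when 1 library was left out. Likewise the log2 fold change of Lama4 turned to -0.020, -0.048, -0.041, -0.082 and -0.010 under the same 5 settings, and ranged from -0.051 to 0.038 when 1 library was left out.

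Replicate numbers did not pair the samples: deviations of same-numbered samples correlated at -0.078, -0.051 and -0.027. With the replicate block, 2 laminin and integrin genes were higher and 4 lower (Lamc1 was lost), and 8 and 14 of the other adhesion genes. The length trend was chosen as an alternative after the data were seen. No alternative moved the median of all genes by 0.1 or more on the log2 scale. Depth limits the 18 genes under the filter, of which Itgad and Lama1 held at most 1 count in any library.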
